A study of Mus musculus with 12 samples.

Results

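Transcripts of the subunits of oxidative phosphorylation were compared between livers given a ChREBP or a GFP adenovirus. Members were all genes on array rows with a single gene symbol whose symbol begins with Ndufa, Ndufb, Ndufc, Ndufs or Ndufv and a digit, Uqcr, Cox4 to Cox8 or Atp5, or is Sdha, Sdhb, Sdhc, Sdhd or Cyc1. They numbered 82 of the 19938 genes tested, with 35 in complex I, 4 in complex II, 9 in complex III, 17 in complex IV and 17 in complex V. The rule uses symbols and no measured difference, although it was set with earlier results of these data known. No filter on low values was applied, so all 82 were tested. ChREBP (gene Mlxipl) is a glucose-responsive transcription factor of glycolytic and lipogenic genes, and GFP is the control protein. Per the labels, the animals were male C57BL/6J mice of 8 weeks, injected through the tail vein and studied in the fed state 3 weeks later. Whether this age is that at injection or at study is not clear from the labels. Whole liver RNA of 6 mice per virus, described as biological replicates, was read on Affymetrix gene arrays, 1 array per mouse, and all values below are log2 signals. The virus dose cannot be read in the labels, and which species and isoform of ChREBP the virus carried is not given in the sources used here. Mlxipl ranged from 9.07 to 9.61 on the GFP arrays and from 10.74 to 10.96 on the ChREBP arrays, a difference of 1.57 (SE 0.09), as the labels require.

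Oxidative phosphorylation takes place in the inner mitochondrial membrane. Complex I accepts electrons from NADH and complex II from succinate, complex III passes them from ubiquinol to cytochrome c, complex IV hands them to oxygen, and complex V uses the resulting proton gradient to make ATP. Most subunits are encoded in the nucleus, and several have isoforms typical of muscle, testis or low oxygen. The subunits encoded by mitochondrial DNA were not analysed here. Cox7c and Ndufb4 lie only on rows with several symbols and were left out.

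Some arrays carried transcripts of other tissues. The mean of 12 skeletal and cardiac muscle markers was 8.15 on GFP 6 and 8.45 on ChREBP 6, against 5.82 to 6.41 on the other 10 arrays, and 0 of these markers passed the test (0 also at an unadjusted p under 0.05 and by the analysis of variance). Pancreatic acinar markers were high on ChREBP 4 (mean 12.002) and ChREBP 5 (11.82). They were at 7.14 on ChREBP 2, 6.21 on ChREBP 6, 5.50 on ChREBP 1 and 5.51 on ChREBP 3, and at 5.56 to 5.69 on the GFP arrays. Leaving out ChREBP 4 and ChREBP 5 thus keeps the smaller amounts on ChREBP 2 and ChREBP 6. The mean of 8 adipocyte markers ranged from 6.83 to 7.96 in GFP and from 7.09 to 7.84 in ChREBP livers, with 2 higher and 2 lower. Fabp4 (1.37) and Lpl (1.35) rose and Pck1 (-0.76) fell without overlap of the groups. Plin1 (-0.22) also fell, a call lost without any 1 of GFP 2, 3, 4 and 6 or ChREBP 1, 3 and 5 (-0.17 to -0.23, adjusted p from 0.0549 to 0.0773). Adipoq, made by adipocytes, was at 8.52 on GFP 4, 8.32 on GFP 6 and 9.02 on ChREBP 6, and at 5.01 to 7.25 on the other arrays. Pck1, which counts in the mean of these markers, was high on every array (10.80 to 11.49 in GFP, 10.10 to 10.79 in ChREBP livers). Whether its fall lies in adipocytes or in hepatocytes was not tested. The liver's own markers were present on every array: the mean of 7 hepatocyte genes was 12.49 to 12.55 in GFP and 12.24 to 12.38 in ChREBP livers, and 5 of them fell, among them Cps1 by 0.43 and Hnf4a by 0.33. Ttr, also among the 5, did not pass without any 1 of 11 arrays (-0.10 to -0.12, adjusted p from 0.0555 to 0.0924). The mean of 11 macrophage markers was 8.02 to 8.28 in GFP and 8.42 to 8.75 in ChREBP livers, with 6 higher and 4 lower. Only 2 were lower without any 1 of GFP 1, GFP 2, GFP 3, ChREBP 1 and ChREBP 5. That of 11 T and NK cell markers was 5.43 to 5.84 and 6.01 to 6.69, with 8 higher and 0 lower (0 also at an unadjusted p under 0.05 and by the analysis of variance). Of 2 blood and erythroid markers measured, Alas2 fell by 1.43 (SE 0.12) without overlap of the groups, and Slc4a1 (-0.000363) did not pass. Beside the counts of these lists, 13.3% of all genes tested were higher and 13.7% lower in ChREBP livers. In whole liver, fewer cells of a type and less RNA per cell cannot be told apart. The part of these tissues and cells in the results below was not tested unless a value without the arrays is given.

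Subunit transcripts changed little. Of the 82 members 18 passed (limma, adjusted p under 0.05 over all genes), while 27.0% of all genes tested passed. Of these, 8 were higher in ChREBP livers, and 13.3% of all genes were. The other 10 were lower, and 13.7% of all genes were. The 6 values of one group lay entirely above or below those of the other in 14 members, while this held for 15.2% of all genes. The median difference was -0.02 for the members and -0.04 for all genes, and the members' median turned to 0.00 when quantile normalization was repeated. The median size of a difference was 0.075 for the members and 0.114 for all genes. The spread between replicates was also smaller, with a median within-group SD of 0.060 against 0.117. The members' rows were bright, with a median percentile of 97.3 among all genes by mean signal. Of the 1993 brightest genes 49.6% passed, and the median size of a difference was 0.151. Cox6b2 and Cox7a1, both tissue isoforms of complex IV, were the 2 members that changed by more than 1.5-fold.

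**Figure D1:**
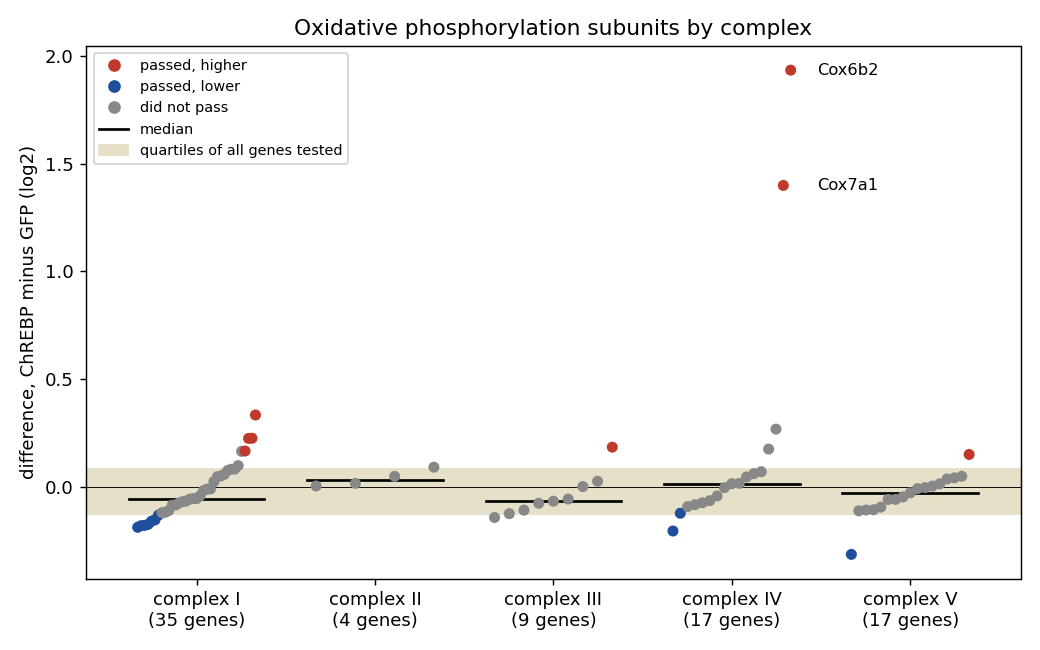
Difference between ChREBP and GFP livers (log2, vertical axis) of each of the 82 subunit genes, by complex. Points are genes, red or blue where they passed the test, black lines are medians of a complex, and the band spans the quartiles of all 19938 genes. Apart from Cox6b2 (1.94) and Cox7a1 (1.40), every gene lies between -0.31 and 0.33.

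The median differences of the complexes lay between -0.07 and 0.03. In complex I 4 of 35 genes were higher and 7 lower, with a median of -0.06. This balance depended on the arrays used. Without ChREBP 4 and ChREBP 5, which carried pancreatic transcripts, 5 were higher and 3 lower. The counts were 2 and 9 without GFP 6 and ChREBP 6, and 2 and 2 with the replicate number as a block. In complex II 0 of 4 passed (0 also at an unadjusted p under 0.05 and by the analysis of variance), with a median of 0.03. In complex III 1 of 9 was higher and 0 lower, with a median of -0.07 (for lower, limma gave 2 at an unadjusted p under 0.05 and the analysis of variance gave 0). Complex IV had 2 higher and 2 lower of 17, with a median of 0.01 (-0.00416 with median centring), or 0 and 2 of 10 without its tissue isoforms (for higher, 0 at an unadjusted p under 0.05 and 1 by the analysis of variance). Complex V had 1 higher and 1 lower of 17, with a median of -0.03. Without ChREBP 4, an array with pancreatic transcripts, 3 genes of complex V were lower, since Atp5d and Atp5j then passed. Averaged over its subunits on each array, with the 8 tissue isoforms left out, a complex differed between the groups by -0.04 to 0.04, while the SD between mice of a group was 0.02 to 0.05. The 2 groups overlapped in each of the 5 complexes. Over all 74 of these genes the mean was 11.16 ± 0.03 (SD, n = 6) in GFP and 11.13 ± 0.04 (SD, n = 6) in ChREBP livers. No difference between complexes was tested, since subunits are not replicates.

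**Figure D2:**
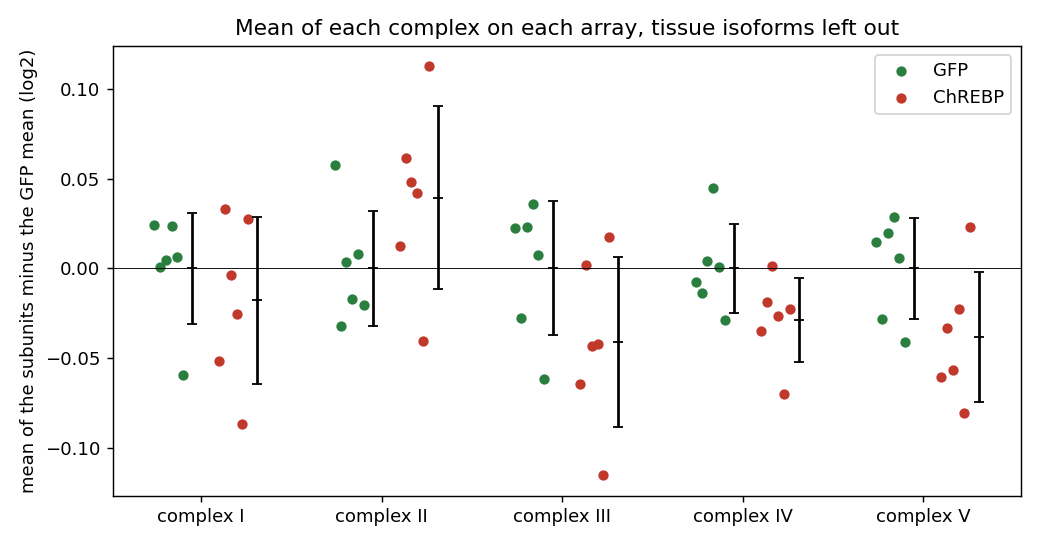
Mean over the subunits of each complex on each array, less the mean of the 6 GFP arrays of that complex (log2). Points are mice, and bars give the mean and SD of 6. Green and red points overlap in all 5 complexes, and the group means differ by -0.04 to 0.04.

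Complex I held 11 of the 18 members that passed and 35 of the 82 members. The share that passed in it was 31.4%, against 27.0% of all genes tested and 49.6% of the 1993 brightest. In its NADH dehydrogenase module, the tip of the matrix arm where NADH is oxidised, 1 of 8 genes was higher and 4 were lower. In the quinone module below it, 1 of 7 was higher and 1 lower, and in the membrane arm 2 of 18 were higher and 2 lower. These modules were drawn up after the values had been seen, and their counts are descriptions. Ndufv1 encodes the flavoprotein that binds NADH and FMN. Its GFP values ran from 10.37 through a median of 10.41 to 10.56, and its ChREBP values from 10.67 through 10.75 to 10.85. All 6 ChREBP livers lay above all GFP livers, a rise of 0.33 (SE 0.05, adjusted p = 0.000134), or 1.26-fold. Ndufv2 is the iron-sulfur subunit that sits next to Ndufv1 in the complex. It went from 11.12, 11.19 and 11.25 (lowest, median, highest) in GFP to 10.93, 10.97 and 11.14 in ChREBP livers. It fell by 0.19 (SE 0.05, adjusted p = 0.00733), with 1 ChREBP liver inside the GFP range. Thus 2 neighbouring subunits of this module moved in opposite directions.

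The other lower genes of the NADH module were accessory subunits. Ndufa2 fell by 0.18 (SE 0.05, adjusted p = 0.0117), from a GFP range of 10.93 to 11.05 to a ChREBP range of 10.73 to 10.92. Ndufa12 fell by 0.16 (10.92 to 11.02 in GFP, 10.71 to 10.89 in ChREBP), a call that was lost when quantile normalization was repeated (-0.12, adjusted p = 0.0538). Ndufv3 fell by 0.15 (10.42 to 10.58 in GFP, 10.29 to 10.41 in ChREBP) and did not pass without ChREBP 4 and ChREBP 5 (-0.12, adjusted p = 0.0863). The groups did not overlap in any of these 3 genes.

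In the quinone module Ndufs7, whose iron-sulfur cluster hands electrons to ubiquinone, rose by 0.23 (SE 0.07, adjusted p = 0.0216). Its values were 8.72, 8.99 and 9.04 (lowest, median, highest) in GFP and 9.04, 9.22 and 9.30 in ChREBP livers. The ranges met at their ends, and the lowest GFP liver, GFP 2, stood well below the other GFP livers. Without the muscle-bearing arrays GFP 6 and ChREBP 6 the size held at 0.23 and the adjusted p was 0.0559. Ndufa6, an accessory subunit, fell by 0.13 (adjusted p = 0.0405), with 10.42 to 10.57 in GFP and 10.27 to 10.46 in ChREBP livers. This call did not survive the loss of any 1 of GFP 1, 3, 4 and 5 or ChREBP 1, 3, 4 and 5 (-0.11 to -0.13, adjusted p from 0.0533 to 0.0873).

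In the membrane arm Ndufa8, an accessory subunit on the intermembrane side, rose by 0.22 (SE 0.05, adjusted p = 0.00212). Its values were 9.52, 9.62 and 9.67 in GFP and 9.72, 9.84 and 9.89 in ChREBP livers, without overlap. Ndufb8 rose by 0.17 (10.40 to 10.62 in GFP, 10.60 to 10.78 in ChREBP, adjusted p = 0.0178) and lost its call under median centring (0.15, adjusted p = 0.0564) and when GFP 6 and ChREBP 6 were dropped (0.14, adjusted p = 0.0714). Both higher genes of the arm thus shifted by amounts near those of the lower ones. Ndufb10 fell by 0.17 (11.08 to 11.26 in GFP, 10.89 to 11.08 in ChREBP, adjusted p = 0.0184), a call that needed ChREBP 4 and ChREBP 5 (-0.13 and adjusted p = 0.0872 without them). Ndufb2 fell by 0.18 (9.07 to 9.49 in GFP, 9.02 to 9.14 in ChREBP, adjusted p = 0.0377) and did not pass when any 1 of GFP 1, 3, 4 and 5 or ChREBP 1, 2, 3 and 5 was left out (-0.14 to -0.19, adjusted p from 0.0521 to 0.0749). Of the members of complex I that did not pass, Ndufs5 (0.16, adjusted p = 0.0607) and Ndufa3 (-0.12, adjusted p = 0.0954) had the largest differences.

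Some of these genes overlap others on the genome. Ndufa2 overlaps Tmco6, Ndufv2 overlaps Ankrd12 and Gm23264, Ndufs7 overlaps a transfer RNA gene, and Uqcr10 overlaps Gm51883. Which part of a transcript the probes read was not analysed here. Ndufa4 was counted with complex I by its name, although its protein is now placed in complex IV.

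**Figure D3:**
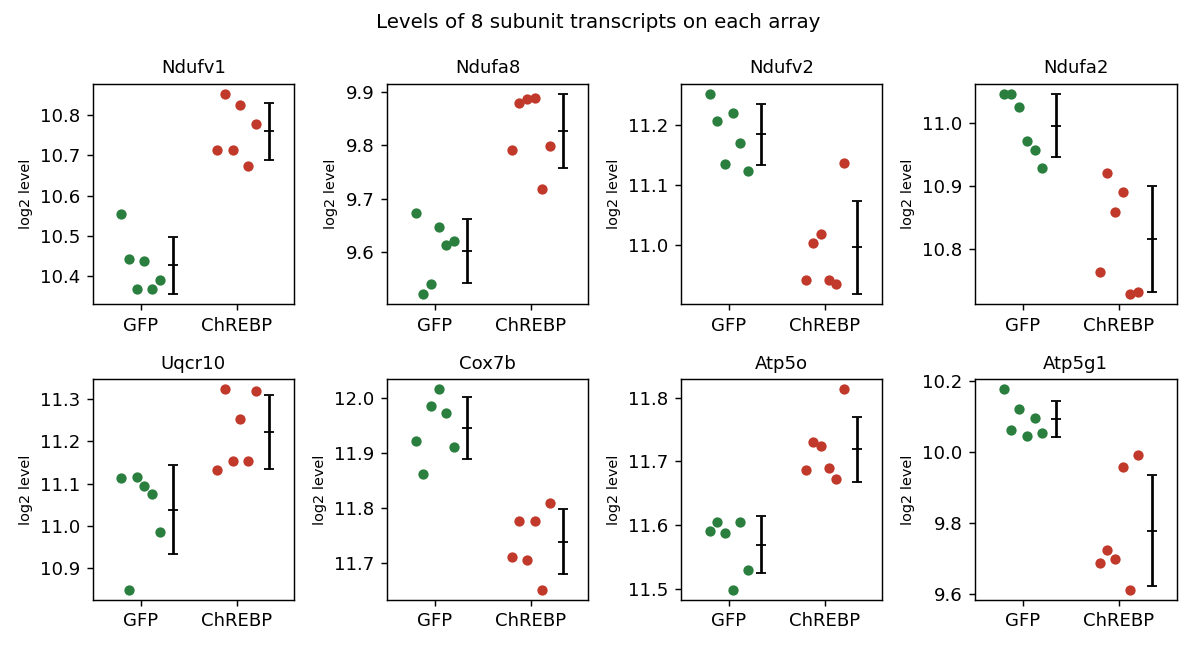
Log2 level of 8 subunit transcripts on each array (vertical axis, 1 point per mouse, green GFP and red ChREBP), with the mean and SD of 6 beside the points. The vertical axis is set for each gene and does not start at 0. The groups are apart for every gene except Ndufv2, where 1 ChREBP liver (11.14) lies within the GFP range.

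The promoters of complex I genes are shown for 2 that rose and 1 that fell, since these genes moved in different directions. NRF1, GABP (an ETS factor) and YY1 are known regulators of nuclear subunit genes, and ChREBP binds pairs of E-boxes. The letters searched on both strands were CGCANGCG for NRF1, CCGGAAG for GABP, AAGATGG for YY1 and CACGTG for a single E-box, and GABP and YY1 matches can share the letters AAG. Sequences are from RefSeq, build GRCm38.p6, on the strand of the gene up to the base before its start, and capitals mark NRF1 or E-box matches. The Ndufv1 stretch is chr19:4012756-4012955 on the minus strand, with CACGTG 169 bases before the start. The Ndufa8 stretch, chr2:36049339-36049472 on the minus strand, ends where the gene Morn5 begins and holds NRF1 matches 29 and 9 bases before the start. The Ndufb10 stretch is chr17:24724424-24724623 on the minus strand, with an NRF1 match 26 bases before the start.
Ndufv1: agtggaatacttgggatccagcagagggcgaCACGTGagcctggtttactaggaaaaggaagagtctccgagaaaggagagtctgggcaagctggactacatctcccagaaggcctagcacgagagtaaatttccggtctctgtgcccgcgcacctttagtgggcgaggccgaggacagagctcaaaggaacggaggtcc
Ndufa8: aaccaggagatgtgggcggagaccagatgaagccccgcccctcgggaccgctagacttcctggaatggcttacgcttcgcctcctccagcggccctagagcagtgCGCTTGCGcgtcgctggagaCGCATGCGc
Ndufb10: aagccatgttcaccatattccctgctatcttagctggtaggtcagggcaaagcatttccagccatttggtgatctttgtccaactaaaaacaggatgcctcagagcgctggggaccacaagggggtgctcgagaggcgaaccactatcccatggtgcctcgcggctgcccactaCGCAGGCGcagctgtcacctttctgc

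The share of promoters with each motif was counted for the members and for all genes tested, members included. Promoters of 250 bases before to 50 after the start were on hand for 66 of the 82 members (71 promoters) and for 15563 of the genes tested (19116 promoters). The NRF1 core was found in 39.4% of member promoters and in 11.98% of the promoters of genes tested. The GABP core was found in 23.9% and 12.1%, the YY1 core in 14.1% and 6.23%, and the single E-box in 9.86% and 8.26%. By complex, the NRF1 core stood in 11 of 33 promoters of complex I, 2 of 3 of complex II, 3 of 5 of complex III, 1 of 12 of complex IV and 11 of 18 of complex V. By direction of change, 3 of 8 promoters of members that rose held the NRF1 core, 3 of 9 of those that fell and 22 of 54 of those that did not pass. An E-box stood before Ndufv1, which rose, and 44 bases before Atp5g1, which fell. The remaining E-box matches were in Atp5g3, Atp5l, Atp5pb and Ndufa7, none of which passed. A pair of exact CACGTG letters with 5 bases between them was in 0 of the 71 promoters and in 0 of all 32851 in the table. Because no promoter at all held this exact pair, the search cannot tell whether members carry less exact pairs, which were not searched. A match is a description of letters and not a binding site.

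Complex II, succinate dehydrogenase, did not pass in any subunit. Sdha, the flavoprotein, had GFP values of 11.52, 11.58 and 11.66 (lowest, median, highest) and ChREBP values of 11.54, 11.65 and 11.70, a difference of 0.05. Sdhb, the iron-sulfur subunit, differed by 0.00, with 10.77 to 10.99 in GFP and 10.73 to 10.90 in ChREBP livers. The membrane anchors Sdhc and Sdhd differed by 0.02 and 0.09. The 4 genes overlapped between the groups, and their 95% intervals lay within -0.10 to 0.20.

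In complex III Uqcr10, a small accessory subunit, rose by 0.18 (SE 0.06, adjusted p = 0.0303). Its values were 10.85, 11.09 and 11.12 in GFP and 11.13, 11.20 and 11.32 in ChREBP livers, without overlap. The call did not hold without any 1 of GFP 2, GFP 6, ChREBP 2 and ChREBP 6 (0.15 to 0.17, adjusted p from 0.0534 to 0.0668), nor without GFP 6 and ChREBP 6 together (0.15, adjusted p = 0.113). Cyc1, the cytochrome that reduces cytochrome c, had a difference of -0.14 (adjusted p = 0.0587) and Uqcrb, the ubiquinone-binding subunit, of -0.13 (adjusted p = 0.0795). Without GFP 6 or without ChREBP 6, Cyc1 passed.

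Complex IV held the largest changes, in isoforms that liver is not known for. Cox6b2, the testis isoform of a subunit at the cytochrome c side, had values of 6.20, 6.57 and 6.64 in GFP and 8.06, 8.54 and 8.71 in ChREBP livers. The groups stood far apart, a rise of 1.94 (SE 0.12, adjusted p = 5.36e-08), or 3.82-fold. Cox7a1, the heart and muscle isoform of a subunit whose liver form is Cox7a2, had values of 6.82, 7.35 and 8.91 in GFP and 8.50, 8.80 and 9.91 in ChREBP livers. The groups overlapped through GFP 6 alone, and the rise was 1.40 (SE 0.31, adjusted p = 0.00405), or 2.64-fold.

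These rises were also present without the muscle-bearing arrays. Cox7a1 was highest in each group on the array with muscle transcripts (8.91 on GFP 6 and 9.91 on ChREBP 6). Without these 2 arrays it rose by 1.48 (adjusted p = 1.61e-05) and Cox6b2 by 2.00 (adjusted p = 4.61e-07). Slc25a4, the heart and muscle isoform of the ATP and ADP exchanger and no subunit itself, followed the same arrays. It ranged from 7.24 to 9.30 in GFP and from 8.57 to 10.21 in ChREBP livers and rose by 1.20 (SE 0.35, adjusted p = 0.0210, or 0.0557 by the analysis of variance). Without GFP 6 and ChREBP 6 it rose by 1.26 (adjusted p = 3.49e-06).

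Other muscle isoforms behaved differently. Cox8b had values of 5.50, 5.85 and 7.75 in GFP and 5.66, 5.91 and 9.14 in ChREBP livers, and Cox6a2 had values of 6.60, 6.88 and 7.83 and 6.69, 6.93 and 8.82. Both were high on the 2 muscle-bearing arrays, and neither passed (0.27 and 0.17, adjusted p = 0.754 and 0.717). Without those arrays the differences were 0.04 and 0.01. The 0.04 of Cox8b includes GFP 4, an array with adipocyte transcripts, on which Cox8b was at 6.97. It was at 5.50 to 6.03 on GFP 1, 2, 3 and 5 and at 5.66 to 6.66 on ChREBP 1 to 5. Cox4i2 (-0.04), the isoform of lung and low oxygen, the testis isoforms Cox7b2 (-0.07) and Cox8c (-0.08), and Ndufa4l2 (0.08), which is induced by low oxygen, did not pass. Thus 2 of the 8 tissue isoforms rose and 0 fell (0 also at an unadjusted p under 0.05 and by the analysis of variance). The share that passed was 25%, near the 27.0% of all genes tested, of which 13.3% rose and 13.7% fell.

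**Figure D4:**
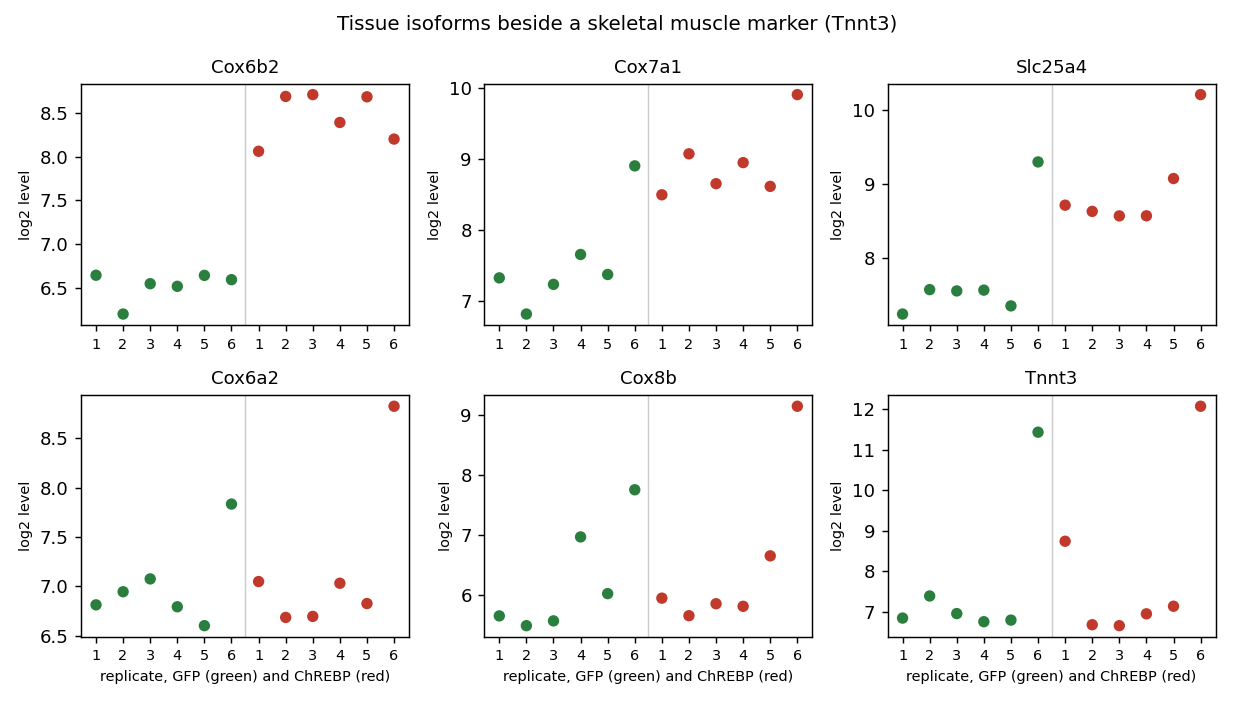
Log2 level of 4 tissue isoforms of complex IV, of Slc25a4 and of the muscle marker Tnnt3 on each array (GFP 1 to 6 in green, ChREBP 1 to 6 in red). The vertical axes do not start at 0. Tnnt3, Cox8b and Cox6a2 are highest on GFP 6 and ChREBP 6, Cox7a1 and Slc25a4 are raised on those arrays and on all ChREBP arrays, and Cox6b2 is raised on all ChREBP arrays only.

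The promoters of the 2 risen isoforms are shown because they carried the largest changes. That of Cox6b2, chr7:4753095-4753225 on the minus strand, ends where Fam71e2 begins, and that of Cox7a1 is chr7:30183971-30184170 on the plus strand (RefSeq, GRCm38.p6). Neither stretch holds any of the letters searched, which says nothing of sites outside it.
Cox6b2: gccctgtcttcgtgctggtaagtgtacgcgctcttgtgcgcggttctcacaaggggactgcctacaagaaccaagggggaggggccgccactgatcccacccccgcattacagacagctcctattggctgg
Cox7a1: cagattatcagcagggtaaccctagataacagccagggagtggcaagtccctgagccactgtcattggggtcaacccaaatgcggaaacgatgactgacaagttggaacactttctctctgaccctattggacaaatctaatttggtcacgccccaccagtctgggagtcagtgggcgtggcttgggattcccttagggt

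Among the subunits of complex IV that liver uses, Cox7b, an accessory subunit, had values of 11.86, 11.95 and 12.02 in GFP and 11.65, 11.74 and 11.81 in ChREBP livers. The groups were apart, a fall of 0.21 (SE 0.04, adjusted p = 0.00272), and its second array row fell by 0.17. Cox5a, a subunit facing the matrix, fell by 0.12 (adjusted p = 0.0369), with 11.16 to 11.25 in GFP and 10.99 to 11.14 in ChREBP livers. Its call ended without any 1 of GFP 1 to 5, ChREBP 5 and ChREBP 6 (-0.10 to -0.13, adjusted p from 0.0522 to 0.0803). Cox4i1, the main form of the largest nuclear subunit, was apart between the groups with a difference of only 0.07 and did not pass (adjusted p = 0.164).

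In complex V the changes were again in opposite directions. Atp5o, which joins the catalytic head to the outer stalk, rose by 0.15 (SE 0.04, adjusted p = 0.0132). Its values were 11.50, 11.59 and 11.61 in GFP and 11.67, 11.71 and 11.81 in ChREBP livers, without overlap, but it did not pass without GFP 6 and ChREBP 6 (0.12, adjusted p = 0.0686). Atp5g1 is one of the genes for the c subunit of the membrane rotor, which Atp5g2 and Atp5g3 encode as the same mature protein. Atp5g1 had values of 10.04, 10.08 and 10.18 in GFP and 9.61, 9.71 and 9.99 in ChREBP livers. The groups were apart, a fall of 0.31 (SE 0.07, adjusted p = 0.00282), and its second array row fell by 0.29. Atp5g2 (0.04) and Atp5g3 (0.00) did not pass, with 95% intervals of -0.16 to 0.24 and of -0.08 to 0.09. Of the 5 genes of the catalytic head and its central stalk (Atp5a1, Atp5b, Atp5c1, Atp5d and Atp5e) 0 passed. At an unadjusted p under 0.05 there was 1, and by the analysis of variance 0, with Atp5d of the stalk at -0.11. Atp5pb of the outer stalk also had a difference of -0.11 (adjusted p = 0.0737).

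Factors that build complex I were mostly lower. Of 13 assembly factors measured, 9 fell and 0 rose (0 also at an unadjusted p under 0.05 and by the analysis of variance), with a median of -0.27. Over all genes tested 13.7% fell and 13.3% rose. Ndufaf6 had values of 7.77, 7.99 and 8.21 in GFP and 7.09, 7.14 and 7.47 in ChREBP livers. These groups were apart, a fall of 0.80 (SE 0.09, adjusted p = 1.02e-05). Ndufaf7, a mitochondrial methyltransferase, fell by 0.53 (SE 0.07), and Ecsit, which also serves in innate immune signalling, fell by 0.51 (SE 0.07), both without overlap. Smaller falls were those of Ndufaf5 (-0.40), Ndufaf3 (-0.31), Tmem126b (-0.29), Timmdc1 (-0.27), Ndufaf2 (-0.17) and Ndufaf1 (-0.17). Of these, Ndufaf1 did not pass without 1 of 6 arrays (GFP 1, 2, 4 and 5, ChREBP 4 and 5, -0.14 to -0.17, adjusted p from 0.0525 to 0.0687). Ndufaf2 did not pass without 1 of 9 arrays (GFP 1, 2, 4 and 5, ChREBP 1, 3, 4, 5 and 6, -0.14 to -0.18, adjusted p from 0.0616 to 0.0968). Under the 25 alternative settings 7 to 9 of the 13 fell and 0 rose.

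Factors of the other complexes gave other counts. For complex IV, 3 of 16 rose and 0 fell (for lower, 2 at an unadjusted p under 0.05 and 0 by the analysis of variance, and 1 without GFP 2 or without GFP 6). Cox19, a copper-related factor, rose by 0.81 (SE 0.08, 8.62 to 9.04 in GFP and 9.44 to 9.84 in ChREBP livers, adjusted p = 4.38e-06), Cox17, the copper chaperone, by 0.21 and Cox14 by 0.19. Cox14 did not pass without GFP 6 and ChREBP 6 (0.15, adjusted p = 0.0661). For complexes II, III and V, 1 of 13 rose and 1 fell, and without GFP 2 the lower count was 3. The share that passed was 18.8% for complex IV and 15.4% for complexes II, III and V, against 27.0% of all genes tested. Sdhaf1 of complex II rose by 0.47 (SE 0.07), and Bcs1l of complex III fell by 0.30 (SE 0.09, adjusted p = 0.0279). The Bcs1l call was lost by the analysis of variance (adjusted p = 0.0547), and likewise when 1 of 6 arrays was dropped (GFP 1 or 4, ChREBP 1, 3, 4 or 5, -0.24 to -0.30, adjusted p from 0.0514 to 0.0610). No difference between these lists was tested.

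**Figure D5:**
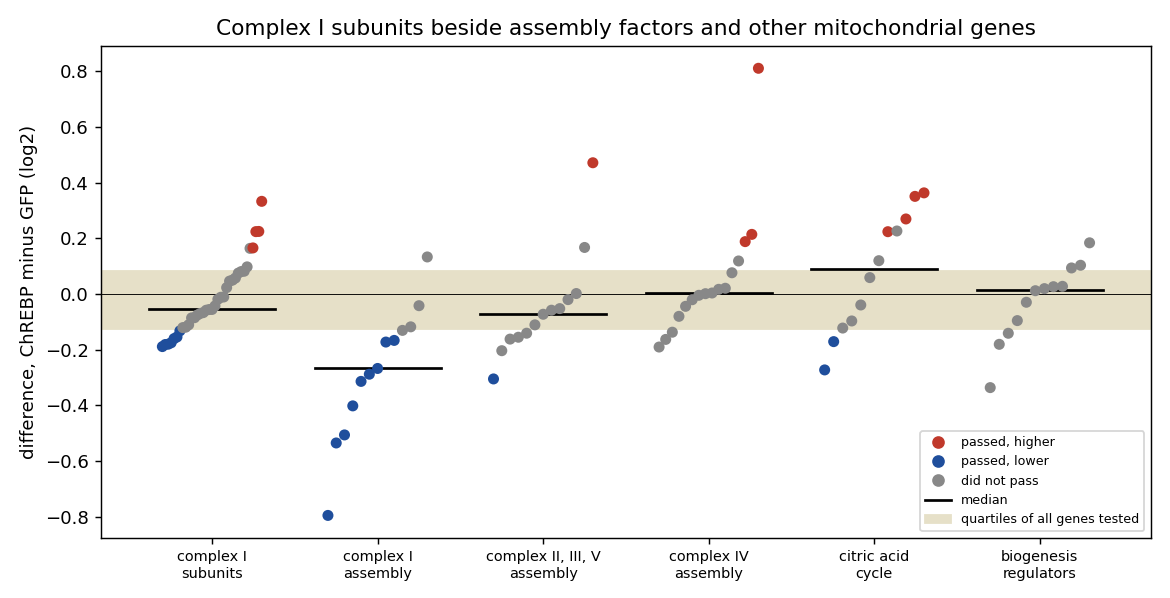
Difference between ChREBP and GFP livers (log2) of complex I subunits, of assembly factors by complex, of citric acid cycle enzymes and of regulators of mitochondrial biogenesis. Points are genes, red or blue where they passed the test, black lines are medians and the band spans the quartiles of all genes. The assembly factors of complex I have a median of -0.27, against -0.06 for its subunits.

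Partners of the chain moved both ways. Of 22 electron carriers, ubiquinone enzymes and linked proteins outside the complexes 6 rose and 4 fell. The share that passed was 45.5%, against 27.0% of all genes tested and 49.6% of the 1993 brightest. Under the alternatives 4 to 8 rose. Among the risen genes, Coq4 did not pass without any 1 of 10 arrays (0.11 to 0.15, adjusted p from 0.0514 to 0.0941). Coq6 did not pass without 1 array (0.18, adjusted p = 0.0522). Atpif1, the inhibitor of ATP hydrolysis by complex V, had values of 10.67, 10.82 and 10.92 in GFP and 11.48, 11.52 and 11.64 in ChREBP livers. The groups were apart, a rise of 0.72 (SE 0.05, adjusted p = 1.11e-07) beside a complex V whose median moved by -0.03. Gpd2, the mitochondrial glycerol 3-phosphate dehydrogenase, rose by 0.53 (SE 0.09) and the ubiquinone hydroxylase Coq7 by 0.45 (SE 0.06). Etfdh, which feeds electrons from fatty acid oxidation to ubiquinone, fell by 0.28 (SE 0.04), Coq8a, a kinase-like ubiquinone protein, by 0.37 (SE 0.08) and Dhodh of pyrimidine synthesis by 0.24 (SE 0.05).

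Of 12 citric acid cycle genes 4 rose and 2 fell. These 50% compare with 27.0% of all genes tested and 49.6% of the 1993 brightest. The median percentile of this list by mean signal was 96.3. Idh3g (0.36), Mdh2 (0.35), Cs (0.27) and Suclg2 (0.22) rose, and Fh1 (-0.27) and Idh3b (-0.17) fell, so that 2 subunits of the same isocitrate dehydrogenase moved apart. The Idh3b call was lost when quantile normalization was repeated (-0.14, adjusted p = 0.0587), without GFP 1 (-0.14, adjusted p = 0.0511) and without ChREBP 4 and ChREBP 5 (-0.16, adjusted p = 0.0771). Among 13 genes of mitochondrial import and protein quality 3 rose and 5 fell, with 3 lower without any 1 of GFP 4, GFP 5, ChREBP 3 and ChREBP 5, and 2 lower without both ChREBP 4 and ChREBP 5. In this list 61.5% passed. Timm17a (0.38), Tomm20 (0.32) and Lonp1 (0.24) rose, and Clpp (-0.27), Tomm70a (-0.22) and Hspe1 (-0.16) were the lower genes with the smallest p. The Hspe1 call was lost when GFP 4 was dropped (-0.14, adjusted p = 0.0552) and when both ChREBP 4 and ChREBP 5 were (-0.12, adjusted p = 0.102). Of the other lower genes, Timm44 (-0.18) did not pass without any 1 of GFP 5, ChREBP 3 and ChREBP 5 (adjusted p from 0.0504 to 0.0578). Hspd1 (-0.12) passed without GFP 3 or without ChREBP 1 but not without any 1 of the other 10 arrays (adjusted p from 0.0526 to 0.0822).

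Regulators of mitochondrial biogenesis passed in 0 of 12 cases (limma, with 3 at an unadjusted p under 0.05, and 1 by the analysis of variance). Over all genes tested 27.0% passed. Ppargc1a, the coactivator of this program, had a difference of -0.18 (adjusted p = 0.332), and Tfam, which packs and transcribes mitochondrial DNA, of 0.03. Nrf1 and Yy1, whose letters were searched in the promoters above, differed by 0.01 and -0.03, and Gabpa by 0.10 (adjusted p = 0.0883). Tfb1m had the largest difference, -0.34 (adjusted p = 0.0804).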

How the data were processed

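Liver RNA of 12 mice, 6 per virus, was measured on 12 arrays. The values are log2 levels deposited by the authors, and RMA and Partek are named, with no version, in the submitters' processing notes. This method subtracts background, normalizes arrays by quantiles and summarises the probes of a transcript, and can shrink small differences. Array medians lay between 5.96 and 6.05. Of 35556 rows, 21789 carried a single symbol in GEO's platform annotation, 1621 several and 12146 were not listed. Symbols were updated through Entrez IDs for 21698 rows. The row with the highest mean over all arrays stood for a gene, which left 19938 genes. Of 16 members with several rows, 13 had the same sign in every row, and the signs differed in Atp5h, Cox5b and Ndufa11. Of those 16, 14 had the same call in every row. The exceptions were Cox6c and Uqcrb, in which 1 row was lower.

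Groups were compared with limma 3.58.1 (lmFit and eBayes, R 4.3.3), two-sided, without covariates, and p was adjusted by Benjamini-Hochberg over all genes. Passing meant an adjusted p under 0.05. The study's methods state an analysis of variance for arrays of Phf2 overexpression, and it was run as an alternative. With neither probe intensities nor detection calls at hand, no gene was called absent. Precision is limited by the number of arrays. The fit was tested on simulated data. Alternatives were repeated quantile normalization, median centring, a filter on the 25% dimmest genes, other uses of a gene's rows, other moderation, array weights, a replicate block, and leaving out single arrays, ChREBP 4 and 5 (pancreatic transcripts), or GFP 4, GFP 6 and ChREBP 6 (adipocyte transcripts). Leaving out GFP 6 and ChREBP 6 was added after seeing the data. Members and gene lists were chosen with earlier results of these data known. Genes were named if they were members that passed, tissue isoforms, Sdh genes, c subunit genes or the 2 members of each complex with the largest difference that did not pass. Of other mitochondrial lists up to 6 genes that passed were named, or 3 in each direction by p. Further genes were named where needed to complete a count or were chosen after their values were seen (Slc25a4, Cox4i1, the transcription factors and Coq and assembly genes beyond that number). Of the tissue and cell type lists only some of the genes that passed were named. Same-numbered samples were not paired.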

Additional observations from a re-analysis of the deposited data

Results flagged for a closer look

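A single array stood apart from the other 5 of its group in 8 of the 72 groups of values examined, where chance flags about 1 in 20 groups. GFP 2 was the array that stood apart in 4 of them: it was lowest for Cox6b2 (6.20), Ndufs7 (8.72) and Atp5g2 (10.51) and highest for Sdhb (10.99). ChREBP 6, which carried muscle transcripts, was highest for the muscle isoforms Cox8b (9.14) and Cox6a2 (8.82). GFP 6 was lowest for Cox4i2 (5.68), and GFP 4 was lowest for Cox7b2 (3.66).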

How the results depend on the processing

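The number of members that passed (18) was 13 to 26 under the alternatives other than the replicate block. It was 15 to 19 when 1 array was left out, 13 without ChREBP 4 and ChREBP 5 and 13 without GFP 4, GFP 6 and ChREBP 6, 16 without GFP 6 and ChREBP 6, 26 with trended moderation and 24 by the analysis of variance. With the replicate number as a block, 8 passed (4 higher, 4 lower); the correlation of deviations between same-numbered arrays was -0.0609 to 0.0971 for numbers 1 to 5 and 0.254 for number 6, the pair with muscle transcripts, so the numbers as a whole were not taken as pairs. Atp5g1, Cox6b2, Cox7a1, Cox7b, Ndufa2, Ndufa8, Ndufv1 and Ndufv2 passed in the same direction in all 25 alternatives. The block ended the calls of the 10 other members, Atp5o, Cox5a, Ndufa6, Ndufa12, Ndufb2, Ndufb8, Ndufb10, Ndufs7, Ndufv3 and Uqcr10 (adjusted p from 0.0570 to 0.126). Without GFP 4, GFP 6 and ChREBP 6 the calls of Atp5o, Cox5a, Ndufa6, Ndufb8, Ndufs7 and Uqcr10 were lost (adjusted p from 0.0594 to 0.144). The median of complex I was -0.0138 after repeated quantile normalization, and that of complex IV ranged from -0.0423 to 0.0197 when 1 array was left out, the lowest without ChREBP 6. The cause was not tested. Among the genes named in the text, some differences that were not called changed sign. Most of these lay near 0, but not those of Cox8b (0.27) and Cox6a2 (0.17). With median centring, which moved every gene by the same amount, Atp5g3 (-0.0153), Sdhb (-0.0147) and Sdhc (-0.00256) changed sign, and with array weights Atp5g2 (-0.00411). When 1 array was left out, Sdhb ranged from -0.00953 to 0.0340, Sdhc from -0.0112 to 0.0347, Atp5g3 from -0.0134 to 0.0156, Atp5g2 from -0.0494 to 0.0706, Cox8b from -0.257 (without ChREBP 6) to 0.568 (without GFP 6) and Cox6a2 from -0.153 to 0.339 (the same arrays). Without ChREBP 4 and ChREBP 5, Ndufa4l2 was -0.00455. Without GFP 4, GFP 6 and ChREBP 6, Cox6a2 was -0.00152, Atp5g3 -0.0183 and Sdhb -0.0355, and without GFP 6 and ChREBP 6 Atp5g3 was -0.0199 and Sdhb -0.0220. The number of arrays limits the precision, and the depth of single probes is unknown here.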

Other observations

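Genes of the mitochondrial ribosome, which translates the mitochondrially encoded subunits, were looked at after the values had been seen. Of 29 small subunit genes (Mrps) 11 fell and 1 rose, with a median of -0.08. Mrps27 (-0.46, SE 0.07) and Mrps24 (-0.36, SE 0.06) had the largest falls, both without overlap of the groups, and Mrps6 rose by 0.24. Of 48 large subunit genes (Mrpl) 7 fell and 4 rose, with a median of -0.03. The share that passed was 41.4% for Mrps and 22.9% for Mrpl genes, against 27.0% of all genes tested. Of 36 cytosolic large subunit genes (Rpl) 0 passed (limma, with 2 at an unadjusted p under 0.05, and 3 by the analysis of variance), with a median of -0.02. No test of a difference between these families was made.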
